A study of Rattus norvegicus with 9 samples.

Results

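The RNA levels of 10 immediate early transcription factor genes (Fos, Fosb, Fosl1, Fosl2, Jun, Junb, Jund, Egr1, Ier2 and Myc) were followed in cultured vascular smooth muscle cells at 24 h of growth factor treatment. The genes were taken by symbol from the 32623 genes of the deposited table. Each symbol had 1 row, and all 10 were among the 11197 genes with an FPKM (fragments per kilobase of exon, scaled to the library total) of 1 or more in 3 or more libraries out of 9, which were tested. The cells were wild-type rat primary aortic smooth muscle cells of passages 4 to 8, grown in 20% serum, kept for 12 h without serum and then treated in 2% serum. There were 3 libraries in each of 3 groups: Control, which received DMSO; PDGF-BB, which received platelet-derived growth factor BB for 24 h; and PDGF-BB+PTUPB, in which 0.5 µM PTUPB was given 2 h before the same 24 h of PDGF-BB. PTUPB is a dual inhibitor of cyclooxygenase-2 and soluble epoxide hydrolase. The PDGF-BB dose was 10 ng/mL by the sample labels and 20 ng/mL by the series design. The 12 h of serum withdrawal and the return to 2% serum were common to all groups, and PTUPB without PDGF-BB was not among the groups. Separate cultures or animals are not named for the libraries within a group, so each p-value reflects library-to-library spread alone, and this may be technical.

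Immediate early genes are switched on by growth factors without new protein synthesis, mainly through ERK kinases acting on serum response factor (SRF) and its ternary complex partners at promoters. Their messages are short-lived, so that levels peak soon after a stimulus and then decline, and a profile at 24 h shows what is left or sustained rather than the first wave. Fos proteins pair with Jun proteins through leucine zippers to form AP-1, which binds TGACTCA and related sites. Egr1 is a zinc finger activator, Ier2 a nuclear regulator of growth factor responses, and Myc pairs with Max at CACGTG sites. In the artery wall, AP-1 and Egr1 have long been linked to the injury response of smooth muscle.

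Promoter sequences from RefSeq (build GRCr8, 250 bases before to 50 bases after the gene start) were at hand for 7 of the 10 genes: Fosb, Fosl1, Fosl2, Junb, Jund, Egr1 and Ier2. They were searched on both strands for 5 motifs: the CArG box bound by SRF, the cyclic AMP response element TGACGTCA, the AP-1 site TGACTCA, the Myc and Max site CACGTG, and the Egr1 site GCGTGGGCG. These motifs do not overlap one another in these 7 windows. Egr1 and Fosb are shown because both fell with PDGF-BB, and Ier2 because it holds a response element and did not pass the test. Capitals mark motif matches, and each sequence runs 5′ to 3′.
Egr1 (chr18:26736828-26737127, plus strand): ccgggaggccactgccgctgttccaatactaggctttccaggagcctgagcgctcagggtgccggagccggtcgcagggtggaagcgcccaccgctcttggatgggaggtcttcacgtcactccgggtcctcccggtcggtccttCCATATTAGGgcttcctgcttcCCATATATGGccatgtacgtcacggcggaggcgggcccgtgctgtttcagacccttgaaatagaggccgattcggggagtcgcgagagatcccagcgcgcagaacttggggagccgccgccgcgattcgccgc
Fosb (chr1:88089135-88089434, minus strand): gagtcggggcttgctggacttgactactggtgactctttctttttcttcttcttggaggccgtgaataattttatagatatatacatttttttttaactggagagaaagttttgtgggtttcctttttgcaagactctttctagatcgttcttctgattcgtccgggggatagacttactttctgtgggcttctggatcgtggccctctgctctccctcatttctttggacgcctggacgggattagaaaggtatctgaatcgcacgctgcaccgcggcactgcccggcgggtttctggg
Ier2 (chr19:40399123-40399422, plus strand): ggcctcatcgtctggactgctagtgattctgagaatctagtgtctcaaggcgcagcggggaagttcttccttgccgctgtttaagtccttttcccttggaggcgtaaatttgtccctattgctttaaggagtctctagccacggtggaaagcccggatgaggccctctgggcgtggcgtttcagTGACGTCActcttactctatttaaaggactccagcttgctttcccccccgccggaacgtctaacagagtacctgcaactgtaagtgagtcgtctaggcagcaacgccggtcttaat
The Egr1 promoter held 2 CArG boxes, CCATATTAGG and CCATATATGG, and a CArG box was found in 1.64% of all 33469 promoters of this length. Ier2 held 1 TGACGTCA, as did Jund, against 1.83% of all promoters. Jund also held 1 GCGTGGGCG (0.544% of all promoters). None of the 5 motifs was found in the windows of Fosb, Fosl1, Fosl2 and Junb, and TGACTCA (4.63% of all promoters) and CACGTG (6.42%) were found in none of the 7. A match is a description of letters, and the absence of one says only that these letters are not in this window.

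Library totals ran from 12729187 to 16911050 counts, and 3 counts corresponded to 0.177 to 0.236 CPM (the count relative to the library total, scaled with TMM factors). Control replicate 2 and PDGF-BB replicate 3 stood apart in a trend with gene length: across genes, their deviation from the other libraries of their group had a Spearman correlation with exonic length of -0.389 and -0.381, against -0.13 to 0.35 in the other 7. Counts of called genes that moved by over 1.5 times with both left out are given with that value. Smooth muscle markers such as Acta2 and Tagln were abundant, with a summed FPKM of 2175 to 3096 over 9 markers. Of the 7 tested, 4 fell with PDGF-BB, among them Myh11 (-1.04 ± 0.14), against 15.8% of all tested genes, and none rose. Tagln and Cnn1 went the other way in mean FPKM without passing, from 1299 in Control to 1658 and from 65.2 to 85.6. Des (up to 0.18 FPKM) and Myocd (up to 1.0 FPKM) were low or absent. Of the endothelial markers, Cdh5, Kdr, Tie1 and Emcn were listed at 0 in every library, as were the macrophage markers Ptprc, C1qa and C1qb and the Schwann cell marker Sox10. The endothelial marker tested, Egfl7, stood at 11.9 to 14.2 FPKM in the Control and PDGF-BB libraries and at 14.75 to 17.11 FPKM with PDGF-BB+PTUPB, and was higher with PTUPB than with PDGF-BB alone (0.32 ± 0.10, edgeR adjusted p = 0.0429). Of the 3 macrophage markers tested, 1 fell with PDGF-BB and 2 were higher with PTUPB than with PDGF-BB alone. The lysozyme gene Lyz2 (0.53 to 2.09 FPKM) fell (-1.80 ± 0.24) and was then higher (1.61 ± 0.24), and Cd14 (12.95 to 19.59 FPKM), which did not pass with PDGF-BB (-0.36 ± 0.13), was higher with PTUPB (0.47 ± 0.13). The 9 adventitial fibroblast markers summed to 1518 to 2544 FPKM in the Control libraries, 999 to 1395 FPKM with PDGF-BB and 1582 to 1829 FPKM with PDGF-BB+PTUPB, with Dpt and Cd34 close to 0. Of the 7 tested, 5 fell with PDGF-BB and 4 of the 7 were higher with PTUPB than with PDGF-BB alone. Over all tested genes, 15.8% were called lower and 8.28% higher in these comparisons. PDGF-BB thus had the lowest sums, as it had the lowest Fos levels, and the part of such cells, or of the macrophage and endothelial markers, in the Fos result was not tested. With both libraries that stood apart left out, 5 of the 7 smooth muscle markers were lower with PDGF-BB+PTUPB than in Control, against 0 with all libraries, and 2 in place of 1 were higher with PTUPB than with PDGF-BB. Likewise, 1 adventitial marker was then lower and Egfl7 higher with PDGF-BB+PTUPB than in Control, neither of which passed with all libraries. With both left out, 1345 of all tested genes were called between PDGF-BB+PTUPB and Control, against 247 with all libraries. In bulk RNA, fewer cells of a type and less RNA per cell cannot be told apart.

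Per exonic length, Junb and Jund were the most abundant of the 10 genes in each group and Fosb the least. In Control the order of mean FPKM was Junb (79.5 ± 11.3, SD, n = 3 libraries), Jund (55.2 ± 4.82), Egr1 (33.6 ± 7.92), Ier2 (19.4 ± 3.20), Myc (15.3 ± 2.83), Fosl1 (14.7 ± 5.64), Jun (9.38 ± 1.11), Fosl2 (6.07 ± 1.36), Fos (3.79 ± 1.14) and Fosb (1.27 ± 0.171). The libraries of neighbours in this order overlapped for Ier2 and Myc, Myc and Fosl1, Fosl1 and Jun, and Fosl2 and Fos. With PDGF-BB the order was kept, and of these pairs Ier2 and Myc and Myc and Fosl1 still overlapped. With PDGF-BB+PTUPB, Myc (18.5 ± 1.94) and Ier2 (18.4 ± 0.990) overlapped, in the opposite order of means. The exonic length of Fosl2 in the deposited table, 744 bases, was the shortest of the 10, and the place of Fosl2 in the order depends on it.

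PDGF-BB was set against Control to ask what the growth factor left of this programme after 24 h. Fos, Fosb and Egr1 fell and none of the 10 rose: 3 of 10 were called (adjusted p under 0.05 by edgeR), against 33.2% of all tested genes, and 15.8% of all tested genes were called lower. The groups did not overlap in 3 of 10 (Fos, Fosb and Fosl2, each lower), against 44.6% of all tested genes (22.6% higher, 22% lower). The share of the members called is thus close to the background. Their median log2 change was -0.06, beside -0.02 over all tested genes. Among all tested genes, 1942 were higher and 1772 lower, and with scaling by library totals these were 2410 and 1350.

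PTUPB was set against PDGF-BB alone to show its effect on cells under growth factor, and here Fos rose and Jun fell. These were the 2 called of 10, against 18.3% of all tested genes (8.28% higher, 10% lower). The groups did not overlap in 4 of 10 (Fos, Fosb and Fosl2 higher, Jun lower), against 40.7% of all tested genes, and the median log2 change was 0.08, beside 0.01 over all. The split over all genes was 927 higher and 1121 lower, and 759 and 1414 with library totals. Between PDGF-BB+PTUPB and Control, 0 of 10 were called by edgeR, and 0 had an unadjusted p under 0.05. DESeq2 and limma also called 0, and 2.21% of all tested genes were called by edgeR (1.89% higher). Many more were called with both Control replicate 2 and PDGF-BB replicate 3 left out, and that count is given in the closing section on processing. With all libraries kept, these groups overlapped for all 10 genes, against 21.5% of all tested genes without overlap. Each pair of comparisons shares the libraries of 1 group, so a fall against Control and a rise against PDGF-BB both rest in part on the same PDGF-BB libraries.

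**Figure D1:**
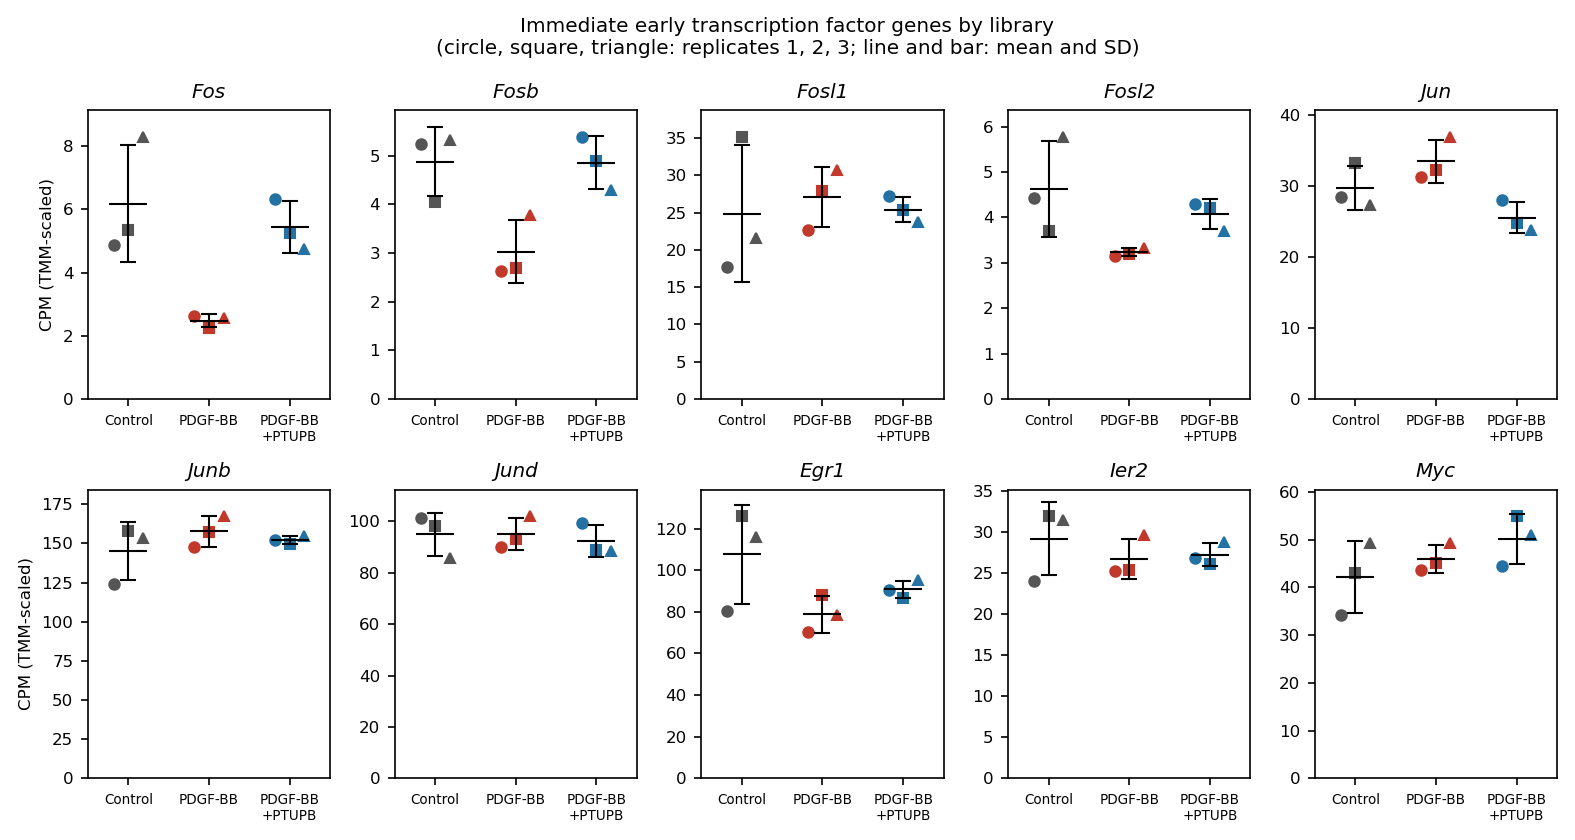
Level of each of the 10 genes in CPM (vertical axis, from 0) in each library, by group, with the mean and SD. The 3 PDGF-BB libraries lay between 2.23 and 2.62 CPM for Fos, below all libraries of the other groups (4.74 to 8.30), while Junb, Jund, Ier2 and Myc overlapped across all groups.

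Fos (ENSRNOG00000008015), the founding Fos protein and a classic first-wave gene, had the largest fold change of the 10 genes with PDGF-BB and with PTUPB against PDGF-BB. It stood at 4.87, 5.36 and 8.30 CPM in the Control libraries, at 2.62, 2.23 and 2.57 CPM with PDGF-BB and at 6.34, 5.24 and 4.74 CPM with PDGF-BB+PTUPB. The PDGF-BB libraries were the lowest 3 of the 9, and the libraries of the other groups overlapped. Behind these values were 30 to 34 counts in each PDGF-BB library and 64 to 125 counts in the others. The log2 change was -1.32 ± 0.24 (SE) with PDGF-BB (2.49-fold lower, edgeR adjusted p = 0.00232) and 1.13 ± 0.24 with PTUPB against PDGF-BB (2.19-fold higher, edgeR adjusted p = 0.0108). Against Control, PDGF-BB+PTUPB differed by -0.18 with a 95% interval of -0.68 to 0.31, which allows a difference in either direction. Both calls held in all 17 alternatives that tested Fos, with an edgeR, DESeq2 or limma adjusted p of up to 0.0113 and 0.0479.

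Fosb (ENSRNOG00000046667), a paralogue with a strong activation domain, followed the same order of groups at low counts. It stood at 5.24, 4.05 and 5.31 CPM in the Control libraries, at 2.62, 2.68 and 3.78 CPM with PDGF-BB and at 5.39, 4.88 and 4.30 CPM with PDGF-BB+PTUPB. All 3 PDGF-BB libraries lay below the other 6, with replicate 3 nearest to them. The change with PDGF-BB was -0.68 ± 0.21 (edgeR adjusted p = 0.0321) and that with PTUPB 0.68 ± 0.21 (edgeR adjusted p = 0.0503), which narrowly missed the threshold. The PDGF-BB call was lost in 8 of 17 alternatives, among them limma (adjusted p = 0.0872), the fit of only the 2 groups compared (edgeR adjusted p = 0.0684) and the fits without Control replicate 1 (0.0891), Control replicate 3 (0.103), PDGF-BB replicate 1 (0.101) or PDGF-BB replicate 2 (0.0934). With Control replicate 2 and PDGF-BB replicate 3 both left out, the PTUPB difference passed (0.87, edgeR adjusted p = 0.0137), as it did with either of them alone left out and with DESeq2 (0.0463).

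Fosl2, or Fra-2, which lacks the activation domain of Fos, stood at 4.42, 3.69 and 5.78 CPM in the Control libraries, at 3.16, 3.20 and 3.33 CPM with PDGF-BB and at 4.30, 4.22 and 3.71 CPM with PDGF-BB+PTUPB. The 3 PDGF-BB libraries were the lowest of the 9 and lay close together. Neither difference passed, at -0.52 ± 0.20 with PDGF-BB (edgeR adjusted p = 0.0758) and 0.34 ± 0.20 with PTUPB (edgeR adjusted p = 0.294). Without Control replicate 2 the PDGF-BB difference passed (-0.66, edgeR adjusted p = 0.0284), and likewise with PDGF-BB replicate 3 also left out (-0.68, edgeR adjusted p = 0.0443).

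Fosl1 (Fra-1), the Fos protein most often linked to sustained growth factor signalling, was the most abundant of the 4 per length. Its Control libraries stood at 17.7, 35.2 and 21.7 CPM, so that replicate 2 was well above its partners. PDGF-BB libraries were at 22.7, 27.9 and 30.8 CPM and PDGF-BB+PTUPB libraries at 27.2, 25.3 and 23.8 CPM. All groups overlapped, and neither the change with PDGF-BB (0.12 ± 0.22, 95% interval -0.36 to 0.60, edgeR adjusted p = 0.704) nor that with PTUPB (-0.09 ± 0.22, edgeR adjusted p = 0.806) passed. Without Control replicate 2, Fosl1 was higher with PDGF-BB (0.46, edgeR adjusted p = 0.0361). With that library and PDGF-BB replicate 3 both left out the Fosl1 difference no longer passed, so its call depends on which libraries enter.

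Within the Fos family, the share held by Fos was lowest in the PDGF-BB libraries. Fos held 14.5%, 11.03% and 19.0% of the summed FPKM of the 4 family genes in the Control libraries, 8.13%, 6.08% and 6.33% in PDGF-BB and 14.5%, 12.9% and 12.8% in PDGF-BB+PTUPB. The PDGF-BB shares were below all others. Fosl1 held 67.5% to 72.3% with PDGF-BB and 59.3% to 61.1% with PTUPB, while its Control share ran from 47.5% to 69.2%. The summed FPKM itself overlapped across groups, at 20.3 to 30.4 in the Control libraries, 20.7 to 26.1 with PDGF-BB and 23.4 to 27.3 with PDGF-BB+PTUPB. These shares were not tested, and they depend on the exonic lengths of the deposited table, such as the 744 bases of Fosl2.

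**Figure D2:**
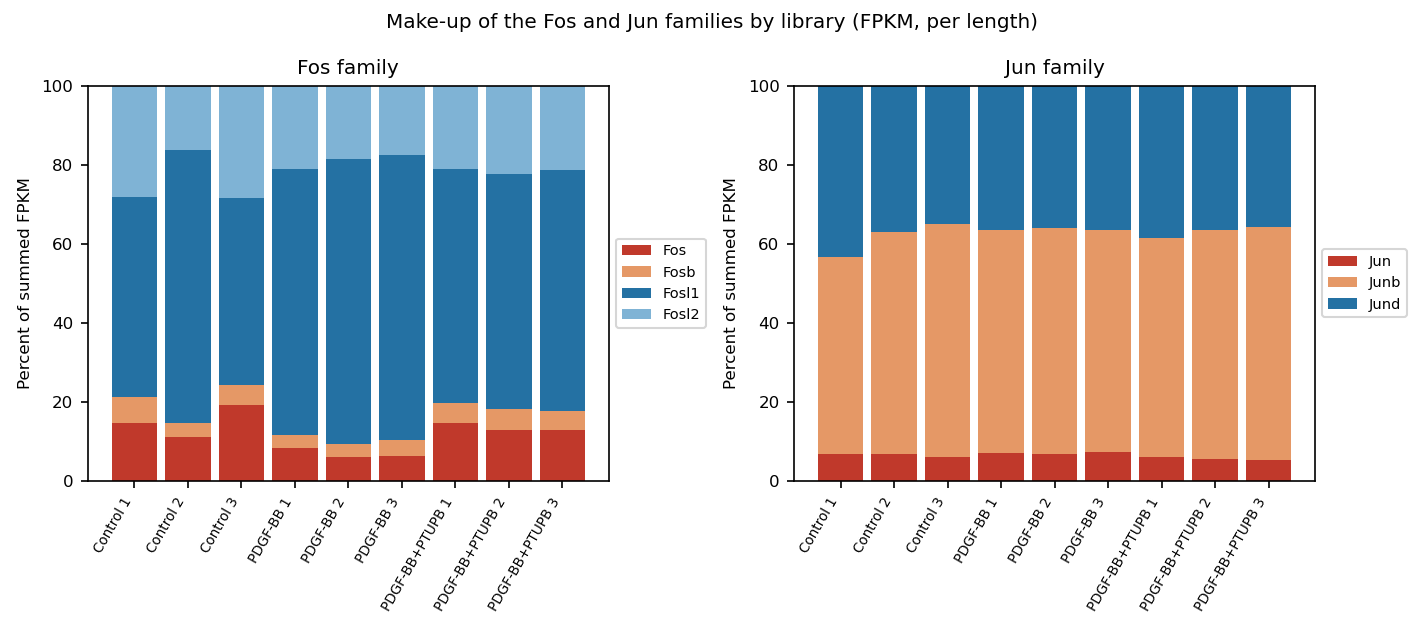
Share of each gene in the summed FPKM of its family (vertical axis, percent) for each of the 9 libraries. The Fos share is 6.08% to 8.13% in the PDGF-BB libraries and 11.03% to 19.0% in the others, and Jun is the smallest part of the Jun family in every library.

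Among the Jun proteins, the obligate partners of Fos in AP-1, only Jun passed a test. Jun (ENSRNOG00000026293), the strongest activator of the 3, stood at 28.4, 33.2 and 27.4 CPM in the Control libraries, at 31.3, 32.2 and 37.0 CPM with PDGF-BB and at 28.0, 24.7 and 23.9 CPM with PDGF-BB+PTUPB. The PDGF-BB+PTUPB libraries were all below the PDGF-BB libraries, and Control overlapped with both. The change with PDGF-BB was 0.17 ± 0.11 (edgeR adjusted p = 0.239), and PTUPB against PDGF-BB gave -0.39 ± 0.11 (1.31-fold lower, edgeR adjusted p = 0.0315). That call was lost without PDGF-BB replicate 3 (-0.32, edgeR adjusted p = 0.0763), without PDGF-BB+PTUPB replicate 2 (0.109) or without PDGF-BB+PTUPB replicate 3 (0.108). Against Control the PDGF-BB+PTUPB libraries differed by -0.22 (95% interval -0.46 to 0.02).

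Junb, a Jun protein that can restrain Jun, ranged from 124 to 158 CPM in the Control libraries, 148 to 168 CPM with PDGF-BB and 150 to 155 CPM with PDGF-BB+PTUPB. Jund, the member least dependent on stimulation, ranged from 85.6 to 101 CPM, 90.1 to 102 CPM and 88.5 to 99.4 CPM. Neither passed in any comparison, and the intervals were narrow: -0.09 to 0.33 for Junb and -0.20 to 0.20 for Jund with PDGF-BB, and -0.26 to 0.16 and -0.24 to 0.16 with PTUPB. Of the summed FPKM of the Jun family, Junb held 50.02% to 59.0%, Jund 35.0% to 43.4% and Jun 5.25% to 7.18% across the 9 libraries.

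Egr1 (ENSRNOG00000019422), the zinc finger factor with CArG boxes in its promoter, stood at 80.5, 126 and 116 CPM in the Control libraries, at 70.2, 87.9 and 78.6 CPM with PDGF-BB and at 90.3, 86.7 and 95.2 CPM with PDGF-BB+PTUPB. Control replicate 1 lay among the PDGF-BB libraries, so the groups overlapped. Egr1 fell with PDGF-BB by 0.45 ± 0.15 on the log2 scale (1.36-fold lower, edgeR adjusted p = 0.0436). The call was lost in 12 of 18 alternatives: with library totals (0.0914), with limma (0.119), with only the 2 groups compared (0.112), without each library except Control replicate 1 and PDGF-BB replicate 2 (0.0611 to 0.137), and with both Control replicate 2 and PDGF-BB replicate 3 left out (edgeR adjusted p = 0.138). PTUPB against PDGF-BB gave 0.20 ± 0.15 (95% interval -0.13 to 0.54, edgeR adjusted p = 0.398).

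Ier2 ranged from 24.0 to 31.9 CPM in the Control libraries, 25.2 to 29.6 CPM with PDGF-BB and 26.1 to 28.8 CPM with PDGF-BB+PTUPB, with intervals of -0.40 to 0.14 for PDGF-BB and -0.24 to 0.30 for PTUPB. Myc, the growth regulator that drives ribosome and metabolic genes, stood at 34.3, 43.0 and 49.2 CPM in the Control libraries, at 43.6, 45.1 and 49.2 CPM with PDGF-BB and at 44.6, 55.0 and 51.1 CPM with PDGF-BB+PTUPB. All groups overlapped for both genes. The Myc differences were 0.12 ± 0.13 with PDGF-BB (edgeR adjusted p = 0.501), 0.13 ± 0.13 with PTUPB against PDGF-BB (0.549) and 0.25 ± 0.13 with PTUPB against Control (95% interval -0.04 to 0.54, edgeR adjusted p = 0.448). Whether Fos changed more than the other 9 genes was not tested.

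**Figure D3:**
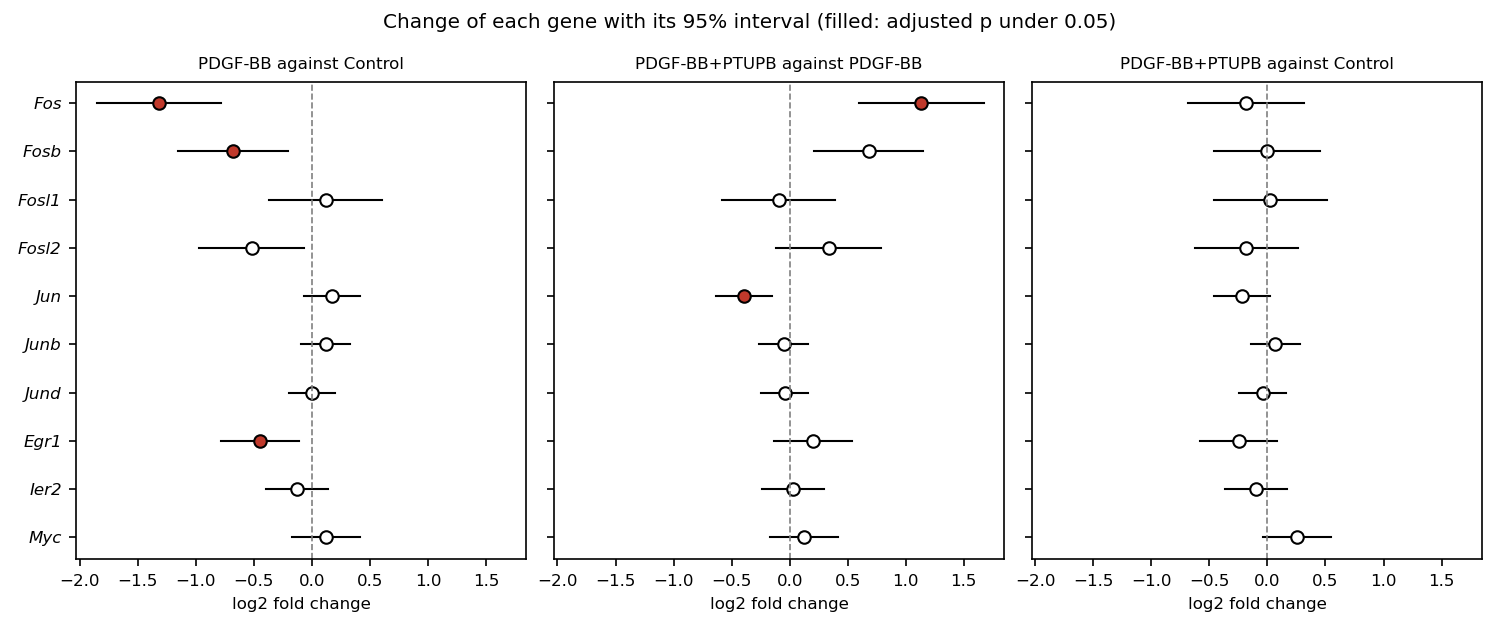
Log2 fold change (horizontal axis) of each gene with its 95% interval in the 3 comparisons, filled where the edgeR adjusted p was under 0.05. Fos, Fosb and Egr1 are filled and below 0 for PDGF-BB, Fos is filled above 0 and Jun below 0 for PTUPB against PDGF-BB, and every interval includes 0 for PTUPB against Control.

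Other first-wave genes were examined as a list of 24, of which 21 were tested. With PDGF-BB 7 fell and 1 rose, where 15.8% of all tested genes were called lower and 17.3% higher. The median log2 change was -0.28, beside -0.02 over all genes. The genes that fell were the Kruppel-like factor genes Klf2 (-0.92 ± 0.23) and Klf6 (-0.44 ± 0.13), the orphan nuclear receptor genes Nr4a1 (-0.58 ± 0.17) and Nr4a2 (-0.77 ± 0.20), the small Maf gene Maff (-0.45 ± 0.09), Ier5l (-0.50 ± 0.16) and Phlda1 (-0.40 ± 0.13). Klf10, also known as a TGF-beta-induced early gene, rose (0.47 ± 0.11, edgeR adjusted p = 0.00782). Atf3, a stress-induced bZIP gene, was below the filter at 0.3 to 0.65 FPKM in all 9 libraries, as were Egr4 (up to 0.03 FPKM) and Arc (up to 1.01 FPKM).

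With PTUPB against PDGF-BB, 8.28% of all tested genes were called higher and 10% lower. The median log2 change of the 21 was 0.21, beside 0.01 over all genes. Of the 21, 3 rose and 0 fell by edgeR. They were Klf2 (0.78 ± 0.23, edgeR adjusted p = 0.0411), Maff (0.47 ± 0.09, edgeR adjusted p = 0.00554) and the matricellular gene Ccn2 (0.48 ± 0.13, edgeR adjusted p = 0.0252). Maff had 24.3, 25.4 and 24.8 FPKM in the Control libraries, 18.5, 17.5 and 20.9 FPKM with PDGF-BB and 24.6, 26.4 and 25.7 FPKM with PDGF-BB+PTUPB, so the PDGF-BB libraries stood alone. Nr4a1 did not follow this order: it was at 16.7 ± 3.59 FPKM in the Control libraries, 11.8 ± 1.39 with PDGF-BB and 11.02 ± 1.98 with PDGF-BB+PTUPB (SD, n = 3), and its difference between the last 2 groups was -0.05 (95% interval -0.44 to 0.34). Without Control replicate 2 and PDGF-BB replicate 3, 10 fell and 1 rose with PDGF-BB, 5 rose and 1 fell with PTUPB, and 2 in place of 0 were lower with PDGF-BB+PTUPB than in Control. Over all tested genes, the last of these comparisons then had 1345 calls in place of 247.

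**Figure D4:**
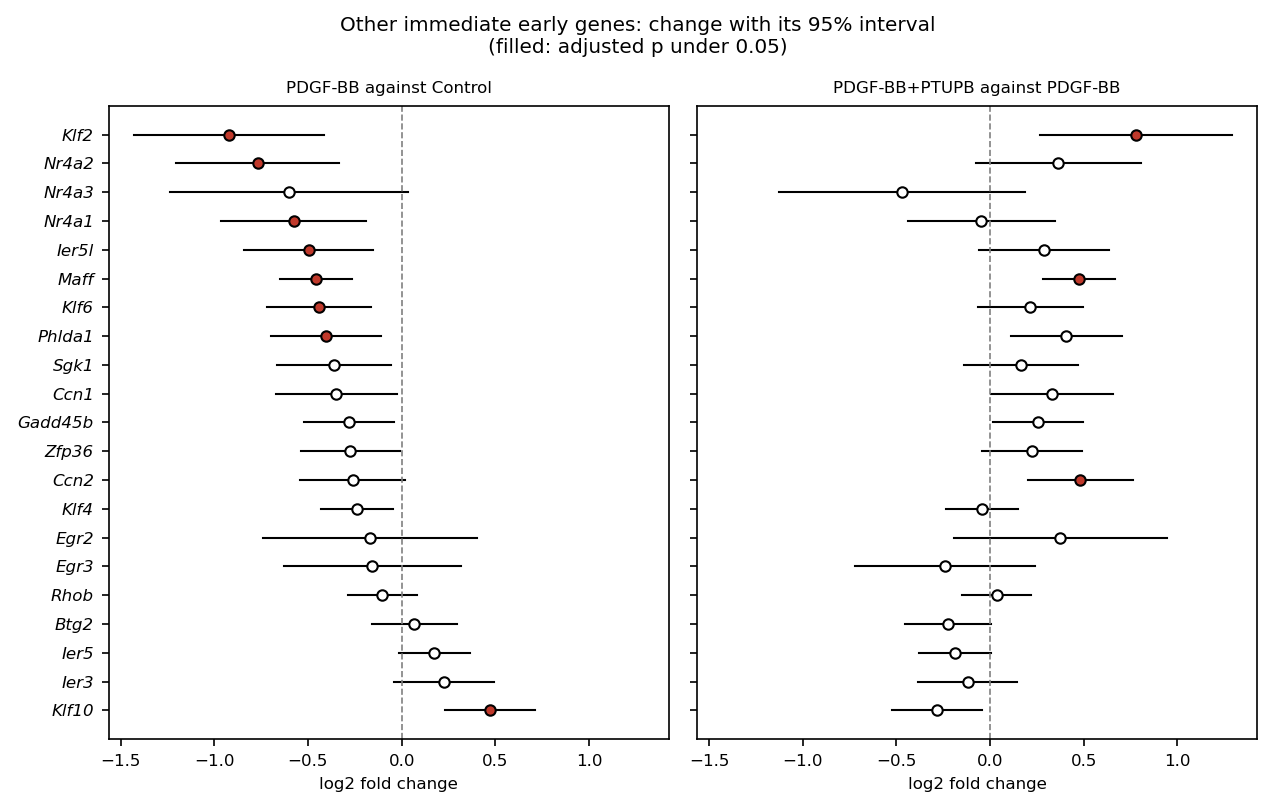
Log2 fold change (horizontal axis) with its 95% interval for the 21 tested genes of the list of other first-wave genes, ordered by their change with PDGF-BB, and filled where the edgeR adjusted p was under 0.05. On the left 7 filled points lie below 0 and Klf10 above, and on the right Klf2, Maff and Ccn2 are filled above 0.

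Upstream of these genes, feedback genes of ERK signalling moved in both directions. Of 11 tested, 3 fell and 2 rose with PDGF-BB (median -0.12). Shares over all tested genes, to be set beside this list and the later ones, were 33.2% called with PDGF-BB and 18.3% with PTUPB against PDGF-BB. Dusp1, a phosphatase of nuclear MAP kinases that is itself an immediate early gene, fell (-1.17 ± 0.14, edgeR adjusted p = 1.88e-04), and so did the Sprouty genes Spry1 (-1.25 ± 0.24) and Spry4 (-1.15 ± 0.24). Dusp6, an ERK phosphatase, rose (0.48 ± 0.11). With PTUPB, Dusp1 rose (0.83 ± 0.14) and Dusp6 fell (-0.36 ± 0.11), the 2 called of 11. With both Control replicate 2 and PDGF-BB replicate 3 left out, 2 of the 11 rose and 0 fell with PTUPB by edgeR, so the Dusp6 call was lost. Among 10 genes of SRF and its cofactors, Srf (-0.29 ± 0.10, edgeR adjusted p = 0.0472) and the ternary complex factor gene Elk4 (-0.47 ± 0.09) fell with PDGF-BB and none rose, and with PTUPB only Elk4 passed (0.34 ± 0.09, edgeR adjusted p = 0.0281). Of 13 kinase genes of these pathways 1 rose and 1 fell with PDGF-BB: Map2k1, which encodes the ERK kinase MEK1, by 0.27 ± 0.08 and Rps6ka5, which encodes the histone kinase MSK1, by -0.70 ± 0.16. Rps6ka5 was also higher with PTUPB than with PDGF-BB (0.63 ± 0.16). Without Control replicate 2 and PDGF-BB replicate 3, 4 of the SRF genes, 4 of the feedback genes and 2 of the kinase genes fell with PDGF-BB, and 1 feedback gene rose. Against Control, 2 of the SRF genes and 1 of the feedback genes were then lower with PDGF-BB+PTUPB, in place of 0. That comparison then had 1345 calls over all tested genes, in place of 247.

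Possible partners of the members were examined next. Over all tested genes, 17.3% were called higher and 15.8% lower with PDGF-BB, and 8.28% and 10% with PTUPB against PDGF-BB. Of 9 tested bZIP genes outside the Fos and Jun families 5 fell and 0 rose with PDGF-BB by edgeR (median -0.38). The smallest p was that of Maf, which encodes a large Maf protein (-1.32 ± 0.12, edgeR adjusted p = 4.74e-05), followed by the small Maf genes Maff, given above, and Mafg (-0.41 ± 0.09). All 3 were higher with PTUPB than with PDGF-BB, Maf by 0.87 ± 0.12 and Mafg by 0.38 ± 0.09, and they were the 3 called of 9. In the Myc network 4 of 9 fell and 0 rose with PDGF-BB by edgeR (median -0.26), including the Myc antagonist genes Mxd1 (-0.53 ± 0.10) and Mxd4 (-0.35 ± 0.07) and Mlxip (-0.54 ± 0.14). Mxd1 rose with PTUPB (0.51 ± 0.10), the only call of 9, and 2 of 9 rose with both Control replicate 2 and PDGF-BB replicate 3 left out. Of both lists, none was called between PDGF-BB+PTUPB and Control, and 2 of each were lower with these libraries left out. Calls over all tested genes then went from 247 to 1345. Max, the partner of Myc, had intervals of -0.20 to 0.19 and -0.09 to 0.30.

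Known target genes of Myc and AP-1 were set beside the same shares of all tested genes: 17.3% higher and 15.8% lower with PDGF-BB, 8.28% and 10% with PTUPB. Of 20 Myc targets 9 rose and 1 fell with PDGF-BB (median 0.29), while Myc itself did not pass. The nucleoside diphosphate kinase gene Nme1 rose by 1.25 ± 0.12, the enolase gene Eno1 by 0.80 ± 0.11 and the lactate dehydrogenase gene Ldha by 0.71 ± 0.11, and the gene that fell, named after its value was seen, was the helicase gene Ddx21 (-0.21 ± 0.07). With PTUPB 5 of 20 fell and 0 rose by edgeR, among them Nme1 (-1.04 ± 0.12), the polyamine enzyme gene Odc1 (-0.96 ± 0.16) and the nucleolar gene Fbl (-0.68 ± 0.11). Of 18 AP-1 targets 9 rose and 3 fell with PDGF-BB (median 0.47), with the smallest p for osteopontin (Spp1, 1.46 ± 0.09), Timp1 (1.30 ± 0.11) and Ezr (0.80 ± 0.12). The 3 that fell, named after their values were seen, were the haem oxygenase gene Hmox1 (-1.21 ± 0.25), Fgf7 (-0.69 ± 0.19) and Il6 (-0.61 ± 0.18). With PTUPB 8 fell and 4 rose, with Spp1 at -0.95 ± 0.09, Ezr at -0.66 ± 0.12 and the stromelysin gene Mmp10 at -1.85 ± 0.35. Mmp10 was near the floor, at 1.80 to 2.27 FPKM with PDGF-BB and 0.30 to 0.88 FPKM with PDGF-BB+PTUPB. The 4 that rose, named after their values were seen, were Hmox1 (1.21 ± 0.25), Fgf7 (0.69 ± 0.19), Il6 (0.60 ± 0.18) and Ccl2 (0.37 ± 0.09). Against Control, 3 of the 18 were higher with PDGF-BB+PTUPB, where 1.89% of all tested genes were called higher. They were Timp1 (0.75 ± 0.11), Spp1 (0.52 ± 0.09) and the vimentin gene Vim (0.57 ± 0.12). Many of these targets also answer to other factors. Without Control replicate 2 and PDGF-BB replicate 3, 8 of the Myc targets fell with PTUPB in place of 5, and 2 in place of 1 with PDGF-BB. Against Control, 4 AP-1 targets were then higher and 2 lower with PDGF-BB+PTUPB, in place of 3 and 0, and 1 Myc target was higher and 1 lower, in place of 0 and 0. Calls over all tested genes in that comparison were then 1345 in place of 247.

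Of 11 genes whose proteins bind AU-rich elements or shorten messages, which set the lifetime of Fos and Myc RNA, 1 rose and 1 fell with PDGF-BB. Over all tested genes 33.2% were called. Zfp36l1, a decay factor, fell from 122 ± 13.6 to 76.0 ± 14.4 FPKM (-0.75 ± 0.13, edgeR adjusted p = 0.00153), and Tial1 rose (0.41 ± 0.08). With PTUPB against PDGF-BB, where 18.3% of all tested genes were called, Zfp36l1 rose (0.67 ± 0.13) and Tial1 fell (-0.29 ± 0.08). Zfp36l2, named after its values were seen, stood at 66.6 FPKM in PDGF-BB replicate 3 and 78.9 FPKM in PDGF-BB+PTUPB replicate 3. In the other libraries it was at 2.29 to 3.19 FPKM, and it passed in no comparison. With both Control replicate 2 and PDGF-BB replicate 3 left out, 2 of the 11 rose and 1 fell with PDGF-BB, and 1 rose and 2 fell with PTUPB. Heat shock genes, which rise with handling stress as many immediate early genes do, were also examined: of 10 tested, 2 rose (Hspd1 and Hsp90aa1) and 1 fell (Hsph1) with PDGF-BB (3 rose and 2 fell with both Control replicate 2 and PDGF-BB replicate 3 left out), and their summed FPKM was 1003 to 1053 in the Control libraries, 1068 to 1147 with PDGF-BB and 1020 to 1099.9 with PDGF-BB+PTUPB. With PTUPB against PDGF-BB 1 of the 10 rose and 1 fell. Against Control, 1 was higher with PDGF-BB+PTUPB, where 1.89% of all tested genes were called higher. Hsp90aa1 stood at a mean of 3.95 FPKM in Control, 28.9 FPKM with PDGF-BB and 16.8 FPKM with PDGF-BB+PTUPB. Hspa1b did not pass with PDGF-BB (-0.32 ± 0.43). The part of handling in the levels of the members was not tested.

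The patterns most like those of the called members were sought as the smallest root-mean-square distance over the 9 libraries between log2 CPM values, each gene taken about its own mean. Tested genes with no symbol, with a clone or locus identifier as symbol, or with a symbol ending in a point and a digit were left out. For Fos, whose own values had a root-mean-square spread of 0.59, the nearest genes were Tbkbp1 (0.19), Adm (0.19) and Lbp (0.21). For Fosb (spread 0.37) they were Insyn1 (0.09), Rnd1 (0.13) and Fan1 (0.13). Jun (spread 0.19) was nearest to Creld2 (0.07), Hnrnpd (0.07) and Cdkn2b (0.08), and Egr1 (spread 0.25) to Ikbke (0.12), Ccdc149 (0.12) and Serac1 (0.12). These distances describe the 9 libraries, which the genes share. Since the genes were picked for their likeness, their own changes are not given.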

How the data were processed

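RNA-seq of 9 libraries (3 groups of 3) was analysed. Per the labels' protocols, poly(A) RNA was primed at random and sequenced paired-end. The submitters' processing notes name cutadapt 1.9.1, HISAT2 2.0.1 and HTSeq 0.6.1 and the build mm10, a mouse build, whereas the identifiers are rat Ensembl ones, so no coordinates of the authors' file are given. The strand used for counting is not given in the sources used here. The authors' table gives, per library, an estimated count (expected count) and an FPKM for 32623 genes, and for 978 genes some count is not whole. Deposited FPKM equalled the count over exonic length and library total to within 0.01 for 100% of values.

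Counts were rounded and fitted with edgeR 4.0.16 (quasi-likelihood F test after TMM scaling, 1 model of group over the 9 libraries) in R 4.3.3, for genes with FPKM of at least 1 in at least 3 libraries. Benjamini-Hochberg adjustment ran over all tested genes, two-sided, with calls under 0.05. SE were derived from the F statistic and intervals are 95%. Scripts were tested on simulated data. Alternatives were library totals, DESeq2 1.42.0, limma 3.58.1 on log2(FPKM + 1) or log2(FPKM + 0.1), a looser or stricter filter, only the 2 groups compared, a replicate block and leaving out libraries. The genes, their lists (16 with the markers) and the comparisons were chosen with earlier results of these data known. Named were the 10 genes, the tested genes of the list of other first-wave genes, up to 3 called genes of each other list by smallest p (the 2 most abundant if none), and the 3 nearest genes in pattern for each called member. Libraries of a group differed by more than sampling noise, with a median chi-square per degree of freedom of 9.17.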

Additional observations from a re-analysis of the deposited data

How the results depend on the processing

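The counts of members called rest on few genes. With PDGF-BB 3 were called, and 1 with limma at either pseudocount, with an FPKM of at least 5 (which leaves Fos and Fosb untested) or with only the 2 groups compared; leaving out 1 library at a time gave 1 to 4. With PTUPB against PDGF-BB 2 were called, 1 with an FPKM of at least 5, and 1 to 3 when libraries were left out. Against Control 0 were called in all 18 alternatives. Over all genes, PTUPB against PDGF-BB gave 2048 calls and 1002 to 2463 without 1 library. PTUPB against Control gave 247, with 93 to 340 without 1 library, 444 with DESeq2 and 1345 with both Control replicate 2 and PDGF-BB replicate 3 left out. No member called in either fit changed direction, and 503 of the single member values kept their side of the threshold, 24 lost and 7 gained a call. With the replicate number as a block, the members called were 2 for PDGF-BB (Fosb lost its call, at an edgeR adjusted p of 0.0507), 1 for PTUPB against PDGF-BB (Jun lost its call, at 0.0669) and 0 against Control. Of 9 same-numbered pairs, 1 had deviations correlated above 0.1 (range -0.24 to 0.18), and 2 of 9 libraries correlated best with their own number. The length trend of Control replicate 2 and PDGF-BB replicate 3, which correlated at 0.23 with each other, may enter these values. The correlations therefore cannot show whether same-numbered libraries are paired. Fos, Fosb and Fosl2 have the fewest counts of the members, at 30 to 34, 34 to 50 and 41 to 44 in the PDGF-BB libraries. Where a library was left out, its group kept 2 and the spread was pooled over groups.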

Other observations

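PDGF-BB replicate 1 was the lowest of its group for 9 of the 10 genes (all but Fos), and PDGF-BB replicate 3 the highest for 8 (all but Fos and Egr1). Control replicate 1 was the lowest for 6 (Fos, Fosl1, Junb, Egr1, Ier2 and Myc), and Control replicate 2 the highest for 5 (Fosl1, Jun, Junb, Egr1 and Ier2). In PDGF-BB+PTUPB, replicate 1 was the highest and replicate 3 the lowest for the same 6 genes, Fos, Fosb, Fosl1, Fosl2, Jun and Jund, whereas Junb, Egr1 and Ier2 were highest in replicate 3. The spread between libraries was also unequal: the coefficient of variation of Egr1 was 22.2% in the Control libraries, 11.2% with PDGF-BB and 4.67% with PDGF-BB+PTUPB, and that of Fosl1 36.9%, 15.0% and 6.65%. With 3 libraries a group these are descriptions and were not tested.

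Nr4a3, a further orphan receptor gene of the first wave, was at 3.79 ± 1.55 FPKM in the Control libraries, 2.62 ± 0.397 with PDGF-BB and 1.83 ± 0.219 with PDGF-BB+PTUPB (SD, n = 3). All 3 PDGF-BB+PTUPB libraries lay below all libraries of both other groups, a different order from that of Fos. None of its differences passed (edgeR adjusted p = 0.110 for PTUPB against Control, 0.132 for PDGF-BB against Control and 0.306 for PTUPB against PDGF-BB). Srf had a similar order of means, at 18.8 ± 0.697, 16.2 ± 1.78 and 14.5 ± 1.05 FPKM, but its PDGF-BB and PDGF-BB+PTUPB libraries overlapped. Its fall with PDGF-BB passed, as given above, and PTUPB against Control had an edgeR adjusted p of 0.0777.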
